A study of Mus musculus with 6 samples.

Results

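The genes described here encode the pore-forming and auxiliary subunits of the voltage-gated and related potassium, sodium and calcium channels. They were taken from the deposited expression table by symbol: rows beginning Kcn followed by a letter, rows beginning Scn followed by a number and a or b, and rows beginning Cacna. Of 125 such rows 119 had a value in all 6 libraries, and Kcnj13 and Kcne2 were left out, which gave 117 genes among 20323 analysed. The libraries were made from GFP-positive cells isolated from mouse hippocampus by magnetic sorting, 1 animal per library. All mice carried Nestin-CreERT2 and a Rosa26 membrane GFP reporter, so GFP marks cells that expressed the Nestin-driven Cre when it was induced, together with their descendants. All mice were fed cuprizone, a copper chelator that demyelinates the brain, for 10 weeks and then recovered for 4 weeks. During recovery 3 mice received vehicle, 0.1% bovine serum albumin in saline, and 3 received neuregulin 1 beta 1 (Nrg-1β1), a ligand of ErbB receptors, at 60 µg/kg/day in the series description. The sample labels print this dose in grams, so its unit is uncertain. No age is given, and no group without cuprizone was used here. The question set by this design is which transcripts of the labelled cells differ with Nrg-1β1 during recovery.

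Potassium channels set the resting potential of a cell and end its action potentials, voltage-gated sodium channels start and propagate them, and voltage-gated calcium channels couple them to transmitter release and to signalling inside the cell. In the hippocampus most of these genes are transcribed in neurons, while a few potassium channels belong to glia. The best known of the glial channels is Kir4.1, encoded by Kcnj10, through which astrocytes and oligodendrocytes take up potassium released by active axons. Progenitors and immature neurons acquire their channels stepwise as they mature.

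Depth differed between libraries and in part with the group. Vehicle libraries 1 and 3 held 72953034 and 47076006 recovered reads, vehicle library 2 held 1075813, and the Nrg-1β1 libraries held 567073 to 1327003. Of the 117 channel genes 102, 47 and 107 had at least 10 reads in vehicle libraries 1 to 3, against 35, 34 and 43 in the Nrg-1β1 libraries, and 53 had fewer than 10 reads over the 3 Nrg-1β1 libraries together. A read counted 5.17, 5.11 and 3.04 normalized counts in Nrg-1β1 libraries 1 to 3, 3.09 in vehicle library 2 and 0.0605 in the deep vehicle libraries. The labels call the cells neural progenitors. The summed normalized counts of 10 progenitor and neuroblast markers were 867 to 1614 per library. Of these markers 5 were higher and 5 lower in Nrg-1β1, and 0 passed. The intermediate progenitor gene Eomes had 77, 4 and 52 reads in vehicle against 1, 0 and 0 in Nrg-1β1. At these unequal depths its groups overlapped, with a log2 difference of -0.93 (adjusted p = 0.472, limma). Markers of other cells were present in every library, with sums of 14009 to 26580 for 10 neuronal, 22902 to 42973 for 8 astrocyte and 92382 to 189688 for 8 mature oligodendrocyte genes. Xist had 3255, 216 and 1045 reads in vehicle against 2, 3 and 1 in Nrg-1β1. Ddx3y, on the Y chromosome, gave 82, 1 and 1994 reads in vehicle against 29, 22 and 15 in Nrg-1β1, so vehicle libraries 1 and 2 stand apart from the Nrg-1β1 libraries and vehicle library 3 holds reads of both genes. Sex may thus differ in part with the group, and its share in the differences below cannot be told apart from Nrg-1β1. Of the remaining marker lists, 4 of 8 choroid plexus genes fell, among them Kcnj13 and Kcne2, and 4 of 4 erythroid genes fell. Of 6 ependymal genes 0 passed, with all 6 differences negative and a median of -1.65. Of 6 oligodendrocyte progenitor genes 1 rose, C1ql1. In such bulk samples fewer cells of a type and less RNA per cell cannot be told apart.

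Between Nrg-1β1 and vehicle, 1 of the 117 channel genes rose and 0 fell (limma on all 20323 genes, Benjamini-Hochberg adjusted p under 0.05). Over all genes 0.438% were called higher and 0.625% lower, 1.06% in either direction (89 and 127 genes, or 335 and 164 after centring on library medians, where 10 channel genes were called higher), and 0.855% of the channel genes is that single call. The call was lost when any 1 library was left out, in the 4 shallow libraries and without vehicle libraries 1 and 2. Differences are on the log2(normalized count + 4) scale, Nrg-1β1 minus vehicle, and are compressed for genes with few reads. With the 6731 genes of a mean normalized count of at least 50 alone, 11 were called higher and 38 lower. Of the 33 channel genes in this fit 0 were called. At an unadjusted p under 0.05, 12 of the 33 were higher and 1 lower (limma, all 6731 genes 10.9% and 7.06%). In simulated data, drawn at the same dispersion for all genes, false calls fell mostly on genes under that count. Below the threshold the channel genes leaned upward. An unadjusted p under 0.05 was found for 21 channel genes with a higher value in Nrg-1β1 (17.9%, where all genes gave 6.15%) and for 4 with a lower value, Kcnj2, Kcnk5, Kcnk6 and Kcne4 (3.42%, where all genes gave 6.86%). The median difference over the 117 genes was 0.19, against 0.03 over all genes, and 73 of the 117 differences were positive (62.4%, against 52.2% of all genes). The 3 values of each group did not overlap for 18 channel genes with higher values (15.4%, all genes 7.37%) and for 6 with lower values (5.13%, all genes 10.4%). Of the 18, 12 were among the 29 channel genes with at least 10 reads in all 6 libraries, and of the 6 lower genes 0 were. Of all 5540 genes with that coverage, 16.6% did not overlap with higher values and 6.39% with lower values, and 14% and 4.44% had an unadjusted p under 0.05 in these directions (limma). At that p, 12 of the 29 channel genes were higher and 0 lower. Among the rest of the 18 were genes such as Scn10a, with 4, 0 and 0 reads in vehicle and 1 read in each Nrg-1β1 library, where the size of a single read decides the value. With only the 4 shallow libraries, in which vehicle library 2 stands alone in its group, the median over channel genes was 0.12 and that over all genes 0.07, with 0 calls, and 6 channel genes higher and 4 lower at an unadjusted p under 0.05 (limma, all genes 2.73% and 5.09%). Without vehicle libraries 1 and 2 the median was 0.25, with 0 calls, and 14 higher and 4 lower at that p (limma, all genes 4.05% and 6.08%). Of the 117 genes 4 had no read in Nrg-1β1 (Kcnq1, Kcnj8, Kcng3 and Kcnh7) and 3 none in vehicle (Kcne1, Kcnj1 and Kcnk16).

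**Figure D1:**
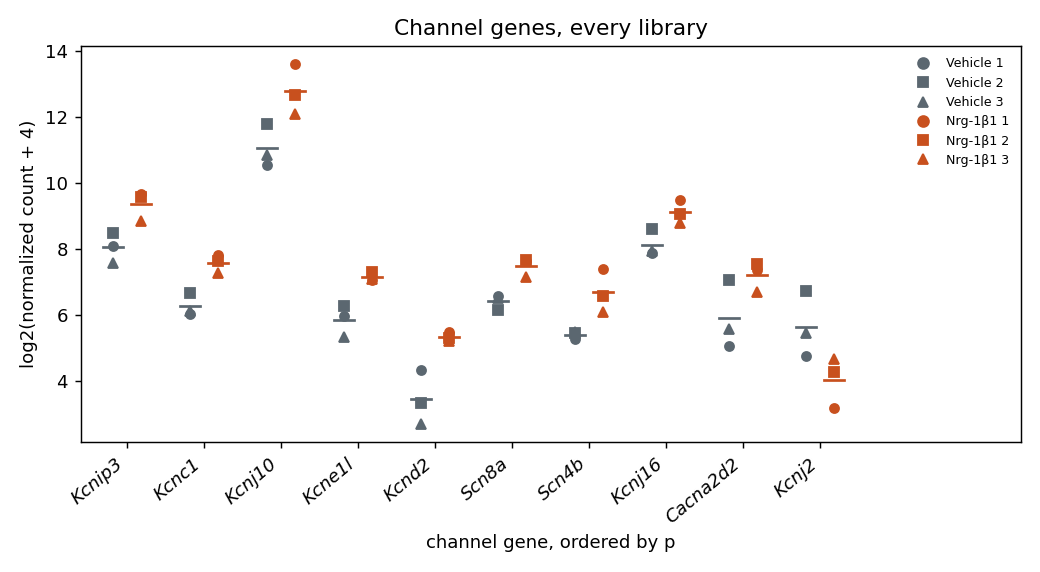
Log2(normalized count + 4) of 10 channel genes among those with the smallest p, for the 3 vehicle and 3 Nrg-1β1 libraries, with a bar at each group mean. The groups do not overlap for any of these genes except Cacna2d2, and Kcnj2 is the only 1 of the 10 that is lower in Nrg-1β1.

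Promoter windows from RefSeq (GRCm38.p6), found for 84 of the 117 genes by gene number, are shown for the 3 channel genes with the smallest p that have a single listed start and no annotated exon in the window: Kcnc1, Kcnj10 and Kcnd2, all of which had higher values in each Nrg-1β1 library than in any vehicle library. Each line gives the 250 bases before the start, 5′ to 3′, and capitals mark matches to GGGCGG (the GC box) or CCAAT (the CCAAT box) on either strand, which do not overlap each other.
Kcnc1 (chr7:46396218-46396467, + strand): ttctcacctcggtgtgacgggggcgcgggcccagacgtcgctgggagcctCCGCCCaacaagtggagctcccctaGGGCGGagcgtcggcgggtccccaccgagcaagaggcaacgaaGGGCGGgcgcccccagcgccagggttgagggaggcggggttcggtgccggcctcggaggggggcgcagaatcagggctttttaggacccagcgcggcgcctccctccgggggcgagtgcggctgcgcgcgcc
Kcnj10 (chr1:172340960-172341209, + strand): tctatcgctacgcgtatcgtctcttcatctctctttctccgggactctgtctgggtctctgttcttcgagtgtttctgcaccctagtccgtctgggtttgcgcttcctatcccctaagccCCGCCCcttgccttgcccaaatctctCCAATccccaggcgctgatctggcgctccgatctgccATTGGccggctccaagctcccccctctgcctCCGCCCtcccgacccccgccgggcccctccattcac
Kcnd2 (chr6:21215096-21215345, + strand): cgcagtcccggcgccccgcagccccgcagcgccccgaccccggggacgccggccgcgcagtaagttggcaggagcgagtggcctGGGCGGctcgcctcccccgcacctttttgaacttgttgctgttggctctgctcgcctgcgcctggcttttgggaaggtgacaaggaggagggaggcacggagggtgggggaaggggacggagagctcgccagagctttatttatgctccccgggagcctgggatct
The Kcnc1 window held 3 GC boxes, that of Kcnj10 held 2 GC boxes and 2 CCAAT boxes, and that of Kcnd2 held 1 GC box. None of the 3 held TATAAA, the TATA box. The windows were 74.4%, 62.0% and 68.8% G and C, where the median of 32851 windows of all genes was 52.4% and that of 113 windows of channel genes 58.8%. A GC box occurred in 43.4% of 113 windows of channel genes and in 32.7% of all windows, a CCAAT box in 27.4% and 33.8%, and a TATA box in 3.54% and 12.4%. These matches describe the letters in the windows and no binding was measured.

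The voltage-gated potassium (Kv) alpha subunits form the pore as homomers or heteromers. Of 39 measured 1 rose, 0 fell and 38 did not pass, with 26 positive differences and a median of 0.24.

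Kcnq3 encodes Kv7.3, an alpha subunit of slowly activating neuronal channels. It had 80, 12 and 378 reads in vehicle against 0, 4 and 3 in Nrg-1β1, and differed by -0.98 ± 0.69 (SE, adjusted p = 0.606, limma). The groups overlapped, and the 95% interval of the difference ran from -2.43 to 0.47. In the shallow libraries the difference was -1.92.

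Kcnc1 encodes Kv3.1, a fast channel that lets interneurons fire at high rates. Its values were 6.02, 6.68 and 6.14 in vehicle and 7.82, 7.63 and 7.28 in Nrg-1β1, without overlap. The difference of 1.30 ± 0.31 (SE) missed the threshold narrowly (adjusted p = 0.0526, limma), and it was 0.90 in the shallow libraries. Its relative Kcnc2, which encodes Kv3.2, differed by 0.70 (adjusted p = 0.453, limma), and by 0.33 in the shallow libraries, with groups that overlapped. Kcnd2 encodes Kv4.2, the main dendritic A-type channel of hippocampal pyramidal cells. It had 269, 2 and 41 reads in vehicle against 8, 7 and 11 in Nrg-1β1, with values of 4.34, 3.35 and 2.70 against 5.50, 5.31 and 5.23. The groups did not overlap and the difference was 1.89 ± 0.53 (SE, adjusted p = 0.089, limma). This was the highest difference among the 117 genes, on few reads, and it was 2.00 in the shallow libraries.

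The axonal subunits Kcna1 and Kcna2 did not pass. Kcna2, which encodes Kv1.2 of the juxtaparanode and the initial segment, had values of 8.12, 8.19 and 7.82 in vehicle and 7.98, 7.87 and 8.15 in Nrg-1β1. Its difference was -0.04 with a 95% interval of -0.62 to 0.53, so a 2-fold change lay outside the interval. Kcna1, which encodes its partner Kv1.1, differed by 0.35 (interval -0.39 to 1.08), and by -0.40 in the shallow libraries. Among genes with fewer reads, Kcna3, which encodes the Kv1.3 channel of lymphocytes and microglia, had 1, 2 and 85 reads in vehicle against 5, 3 and 4 in Nrg-1β1, and differed by 1.54 (adjusted p = 0.216, limma). Kcnq1, which encodes the cardiac and epithelial Kv7.1, had 44, 1 and 45 reads in vehicle against 0 in Nrg-1β1, where the limit that 3 reads set is above the vehicle level. A difference was therefore not detectable at this depth.

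**Figure D2:**
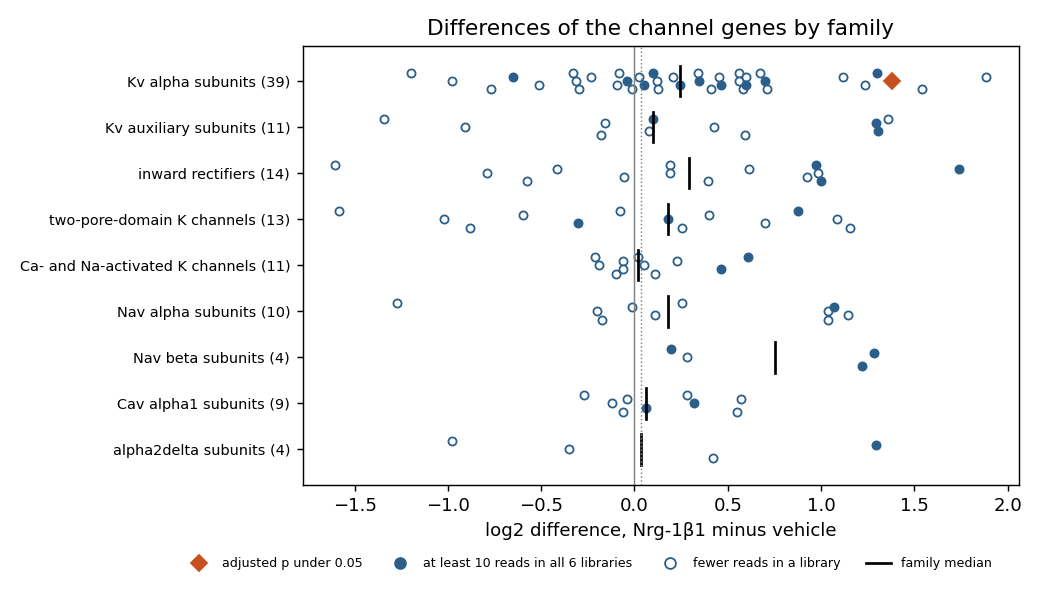
Log2 difference, Nrg-1β1 minus vehicle, of the channel genes in 9 families, with the number of genes in brackets, a black bar at each family median and a dotted line at the median of all genes, 0.03. Filled points have at least 10 reads in all 6 libraries. The diamond is the only gene past the threshold, the Nav beta subunits all lie above 0, and the calcium- and sodium-activated potassium channels stay within -0.21 and 0.61.

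The Kv auxiliary subunits bind the pore and tune its gating or its transport to the membrane. Of 11 measured 0 passed, 7 had positive differences and the median was 0.10. Kcnip3 encodes a calcium sensor that binds Kv4 channels and is also known as calsenilin or DREAM. Its values were 8.08, 8.49 and 7.59 in vehicle and 9.65, 9.58 and 8.84 in Nrg-1β1, from 115 reads or more in every library. The groups did not overlap, and the difference of 1.31 ± 0.31 (SE) lay at the threshold without passing (adjusted p = 0.0502, limma). In the shallow libraries it was 0.87 ± 0.44 (SE). Kcne1l, listed elsewhere as Kcne5, encodes a small single-pass subunit. Its values were 5.96, 6.29 and 5.33 in vehicle and 7.06, 7.30 and 7.11 in Nrg-1β1, again without overlap, a log2 difference of 1.29 ± 0.34 (SE, adjusted p = 0.0655, limma). Kcnab2, which encodes the Kvβ2 subunit of axonal Kv1 channels, had 180 reads or more in every library and values of 10.64, 10.01 and 10.06 against 9.87, 10.48 and 10.65. The groups overlapped, with a difference of 0.10 (interval -0.56 to 0.76). Kcne4 had 162, 1 and 338 reads in vehicle against 1, 0 and 0 in Nrg-1β1, and differed by -1.34 (adjusted p = 0.302, limma). The groups overlapped, and in the shallow libraries the difference was -0.43.

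The inward rectifiers (Kir channels) pass potassium at and below rest. Of 14 measured 0 passed, 9 had positive differences and the median was 0.29. Kcnj10 took more reads than any other channel gene in 5 of the 6 libraries, vehicle library 1 being the exception, where Kcnab2 had 26219 reads. Its values were 10.55, 11.78 and 10.83 in vehicle and 13.61, 12.67 and 12.10 in Nrg-1β1, from 1138 reads or more per library. Every Nrg-1β1 value lay above every vehicle value, with Nrg-1β1 library 1 the highest and vehicle library 2 the nearest of the vehicle libraries. The means were 11.05 ± 0.65 and 12.79 ± 0.76 (SD, n = 3 each), and the difference of 1.74 ± 0.44 (SE) did not pass (adjusted p = 0.0567, limma). In the shallow libraries it was 1.01 ± 0.77 (SE, adjusted p = 0.826, limma). Kcnj16 encodes Kir5.1, which joins Kir4.1 in astrocytes. Its values were 7.88, 8.61 and 7.93 in vehicle and 9.49, 9.06 and 8.78 in Nrg-1β1, also without overlap, a log2 difference of 0.97 ± 0.30 (SE, adjusted p = 0.126, limma), and 0.50 in the shallow libraries. Reads of Kcnj10 per read of Kcnj16, a ratio that no scaling between libraries can move, were 6.44, 9.10 and 7.60 in vehicle and 17.5, 12.3 and 10.1 in Nrg-1β1.

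Kcnj10 made up a large share of the channel signal. It held 18.1%, 31.1% and 24.7% of the channel reads in vehicle libraries 1 to 3 and 56.5%, 39.8% and 32.4% in Nrg-1β1 libraries 1 to 3. The summed normalized count of the 117 genes was 8230, 11289 and 7358 in vehicle and 22037, 16406 and 13558 in Nrg-1β1. Without Kcnj10 the sums were 6740, 7776 and 5538 against 9577, 9878 and 9170. On this scale the groups stayed apart, and the ratio of means went from 1.93 to 1.43. An exact permutation test gave p = 0.1 (two-sided) for both sums, the smallest value that 3 against 3 allows, and 14 such sums were compared. As a percentage of all reads of a library, the groups overlapped. The 117 genes held 0.186, 0.340 and 0.258 in vehicle against 0.752, 0.485 and 0.336 in Nrg-1β1. Without Kcnj10 these percentages were 0.153, 0.234 and 0.195 against 0.327, 0.292 and 0.227.

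**Figure D3:**
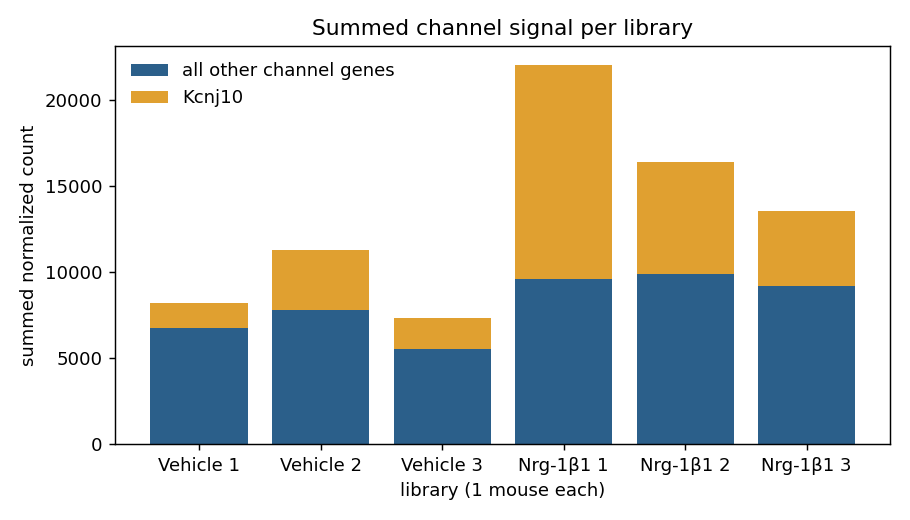
Summed normalized count of the channel genes in each library, split into Kcnj10 and all other channel genes. The sum without Kcnj10 is 5538 to 7776 in the vehicle libraries and 9170 to 9878 in the Nrg-1β1 libraries, and the Kcnj10 part is largest in Nrg-1β1 library 1. As a percentage of all reads of a library, the groups overlap with and without Kcnj10.

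Other inward rectifiers went both ways without passing. Kcnj11 encodes Kir6.2, the pore of the ATP-sensitive channel, and had values of 5.57, 5.46 and 4.95 in vehicle and 6.52, 6.14 and 6.32 in Nrg-1β1. The groups did not overlap, and the difference was 1.00 ± 0.36 (SE, adjusted p = 0.217, limma). Kcnj2 encodes Kir2.1, found in vascular cells, microglia and neurons, and had 381, 33 and 657 reads in vehicle against 1, 3 and 7 in Nrg-1β1. Its values of 4.76, 6.73 and 5.45 lay above the 3.20, 4.27 and 4.66 of Nrg-1β1, a log2 difference of -1.60 ± 0.55 (SE, adjusted p = 0.184, limma), and of -2.68 in the shallow libraries. Kcnj8 encodes Kir6.1, a channel of pericytes and smooth muscle. It had 59, 0 and 115 reads in vehicle against 0 in every Nrg-1β1 library. Taking 3 reads over the Nrg-1β1 group as the floor, its pooled level was at least 1.25-fold lower there. Vehicle library 2, the shallow one, had 0 reads as well.

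The two-pore-domain channels carry the background potassium current. Of 13 measured 0 passed, with 7 positive differences and a median of 0.18. Kcnk5, which encodes TASK-2, had 220, 4 and 460 reads in vehicle against 1, 1 and 0 in Nrg-1β1, and differed by -1.58 ± 0.56 (SE, adjusted p = 0.2, limma). Its pooled vehicle level was 7.36 times the Nrg-1β1 level, with a 95% counting interval of 2.03 to 60.9. Kcnk6, which encodes TWIK-2, had values of 5.94, 6.45 and 6.23 in vehicle and 4.62, 5.31 and 5.63 in Nrg-1β1. These did not overlap, and the difference was -1.02 ± 0.39 (SE, adjusted p = 0.246, limma). Kcnk13 encodes THIK-1, the resting channel of microglia. Its values were 6.01, 5.36 and 5.60 in vehicle and 5.66, 5.64 and 5.44 in Nrg-1β1, which overlapped, with a difference of -0.08 (interval -0.86 to 0.71). Kcnk3, which encodes TASK-1, had values of 6.06, 6.04 and 5.25 against 6.88, 6.58 and 6.53 and differed by 0.88 (adjusted p = 0.266, limma). The glial channels Kcnk1 (TWIK-1) and Kcnk2 (TREK-1) differed by 0.18 (interval -0.43 to 0.79) and -0.30 (interval -1.10 to 0.50).

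The calcium- and sodium-activated potassium channels link firing to after-hyperpolarization. Of 11 measured 0 passed, and none had an unadjusted p under 0.05 in limma or differed by more than 0.61. Kcnn2, which encodes the SK2 channel, differed by 0.61 (interval -0.25 to 1.46), with values of 5.97, 7.28 and 5.96 in vehicle and 7.57, 6.24 and 7.23 in Nrg-1β1. The groups overlapped, and in the shallow libraries the difference was -0.27. Kcnma1, which encodes the BK channel pore, differed by -0.06 (interval -0.93 to 0.81), and Kcnt1, which encodes the sodium-activated Slack channel, by 0.47 (interval -0.26 to 1.19). Kcnu1, which encodes a sperm channel, had 2 reads in Nrg-1β1, and Kcnn4, the SK4 channel of microglia and blood cells, had 4, so their differences of 0.23 and 0.11 rest on very few reads.

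The voltage-gated sodium (Nav) alpha subunits generate the upstroke of the action potential. Of 10 measured 0 passed, with 6 positive differences and a median of 0.18. Scn8a encodes Nav1.6, the channel of mature initial segments and nodes of Ranvier. Its values were 6.59, 6.17 and 6.52 in vehicle and 7.65, 7.67 and 7.17 in Nrg-1β1, without overlap, from 22 reads or more per library. The difference of 1.07 ± 0.31 (SE) did not pass (adjusted p = 0.096, limma), and it was 1.33 ± 0.30 (SE) in the shallow libraries. Scn2a encodes Nav1.2, the channel of immature and unmyelinated axons. It had values of 6.06, 6.45 and 5.64 in vehicle and 5.66, 6.92 and 4.97 in Nrg-1β1, with overlap and a difference of -0.20 (interval -1.13 to 0.73). Reads of Scn8a per read of Scn2a were 1.47, 0.815 and 1.91 in vehicle and 4.22, 1.70 and 5.11 in Nrg-1β1, so the groups overlapped through vehicle library 3 and Nrg-1β1 library 2. Scn1a, the Nav1.1 channel of interneurons, differed by 0.11 (interval -1.27 to 1.49) and Scn3a, the Nav1.3 channel of embryonic neurons, by 0.26 (interval -0.90 to 1.41), both on at most 10 reads per Nrg-1β1 library. Scn4a, the muscle channel Nav1.4, gave 8, 2 and 3 reads in vehicle against 2 in each Nrg-1β1 library. Its groups overlapped, and its difference of 1.14 (adjusted p = 0.358, limma) was 0.32 in the shallow libraries.

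The Nav beta subunits are adhesion-like proteins that modify gating and surface level. Of 4 measured 0 passed, all 4 differences were positive, and the median was 0.75. Scn4b, which encodes β4, had values of 5.29, 5.46 and 5.47 in vehicle and 7.40, 6.58 and 6.08 in Nrg-1β1, without overlap, a log2 difference of 1.28 ± 0.38 (SE, adjusted p = 0.11, limma), and of 1.23 in the shallow libraries. Scn2b, which encodes β2, had values of 7.28, 6.92 and 7.10 against 7.53, 6.92 and 7.44 and differed by 0.20 (interval -0.43 to 0.83).

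The calcium channel (Cav) alpha1 subunits form the calcium pore. Of 9 measured 0 passed, none had an unadjusted p under 0.05 in limma, and no difference lay beyond -0.27 and 0.57. Cacna1a encodes the P/Q-type channel of presynaptic terminals. Its values were 6.48, 6.96 and 6.62 in vehicle and 6.67, 7.20 and 7.14 in Nrg-1β1, which overlapped, with a difference of 0.32 (interval -0.33 to 0.97). A 2-fold rise, which this scale compresses, was not excluded. Cacna1h, a T-type channel, differed by -0.04 (interval -0.82 to 0.74), and the L-type gene Cacna1c by 0.57 (interval -0.49 to 1.64). The N-type gene Cacna1b and the R-type gene Cacna1e had at most 6 reads per Nrg-1β1 library and differed by -0.27 and 0.55, and by -0.84 and 1.39 in the shallow libraries.

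The α2δ subunits bring calcium channels to the surface and are the targets of gabapentinoid drugs. The 4 measured genes went both ways, and 0 passed. Cacna2d2 had values of 5.07, 7.06 and 5.59 in vehicle and 7.36, 7.55 and 6.70 in Nrg-1β1, a log2 difference of 1.30 ± 0.43 (SE, adjusted p = 0.165, limma). The groups overlapped because vehicle library 2 lay with the Nrg-1β1 libraries, and in the shallow libraries the difference was 0.14. Cacna2d1 had 295, 10 and 375 reads in vehicle against 2, 2 and 3 in Nrg-1β1, with values of 4.45, 5.12 and 4.74 above 3.84, 3.83 and 3.71. Its difference was -0.98 ± 0.50 (SE, adjusted p = 0.428, limma), and -1.33 in the shallow libraries. Cacna2d3 had at most 3 reads per Nrg-1β1 library and differed by 0.42.

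Grouped by the cells and compartments in which they are best known, the channel genes separated as follows, with list scores given as the mean log2 value after centring each gene on its mean over the 6 libraries. The 5 glial potassium channels (Kcnj10, Kcnj16, Kcnk1, Kcnk2 and Kcnk10) scored -0.42, -0.21 and -0.50 in vehicle and 0.47, 0.30 and 0.36 in Nrg-1β1, with 0 past the threshold and a median difference of 0.97. The 8 astrocyte markers lay in the same direction. They scored -0.42, -0.13 and -0.34 in vehicle and 0.44, 0.25 and 0.20 in Nrg-1β1, with all 8 differences positive, a median of 0.63, summed counts of 22902 to 34460 against 38506 to 42973, 0 of 8 past the threshold and none of the 8 without reads in Nrg-1β1. Of the 8 mature oligodendrocyte markers 7 differences were negative, with a median of -0.35, 0 past the threshold, and scores of 0.28, 0.27 and 0.09 in vehicle and -0.15, -0.39 and -0.11 in Nrg-1β1, the opposite direction to the glial channels. The part of astrocyte or oligodendrocyte RNA in the Kcnj10 and Kcnj16 values was not tested.

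Of the 12 channels of the initial segment and node, 8 differences were positive. They scored -0.28, 0.01 and -0.27 in vehicle and 0.25, 0.34 and -0.05 in Nrg-1β1, so vehicle library 2 lay among the Nrg-1β1 libraries. The 6 fast-spiking interneuron channels, a list that shares 2 genes with the one before, had 0 past the threshold, 6 positive differences and a median of 0.69. The 16 dendritic and somatic potassium channels had a median of 0.04 and the 6 presynaptic calcium channel genes one of 0.37, with 0 calls in each. Neuronal markers were higher by score in each Nrg-1β1 library than in any vehicle library. The 10 genes scored -0.05, -0.01 and -0.62 in vehicle and 0.11, 0.43 and 0.14 in Nrg-1β1, with 9 positive differences, a median of 0.25 and 0 past the threshold, while their summed counts overlapped (14009 to 24258 and 17718 to 26580). The part of neuronal RNA in the channel values was not tested.

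The 8 vascular and mural cell channels (Kcnj8, Kcnj2, Kcnk3, Kcnk5, Kcnmb1, Cacna1c, Cacna1h and Cacna1d) had 6 negative differences, a median of -0.15 and 0 calls. These channels had summed counts of 200 to 315 in vehicle and 216 to 294 in Nrg-1β1, which overlapped. Beside them, 6 of 8 endothelial markers and 1 of 8 pericyte and smooth muscle markers fell, with summed counts of 565 to 2727 against 103 to 133 and of 225 to 550 against 148 to 212. In Nrg-1β1 only Des among these markers had no read, while each endothelial marker had 24 reads or fewer in all. The 4 microglial and immune potassium channels had 2 positive and 2 negative differences and a median of 0.02. Their summed counts were 123 to 130 in vehicle and 100.3 to 103 in Nrg-1β1, without overlap. By score they overlapped, with -0.24, -0.05 and 0.08 in vehicle and 0.21, 0.06 and -0.07 in Nrg-1β1. Of 8 microglial markers 5 fell, with sums of 5795 to 9135 against 2128 to 2661. The part of these cell types in the channel values was not tested.

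**Figure D4:**
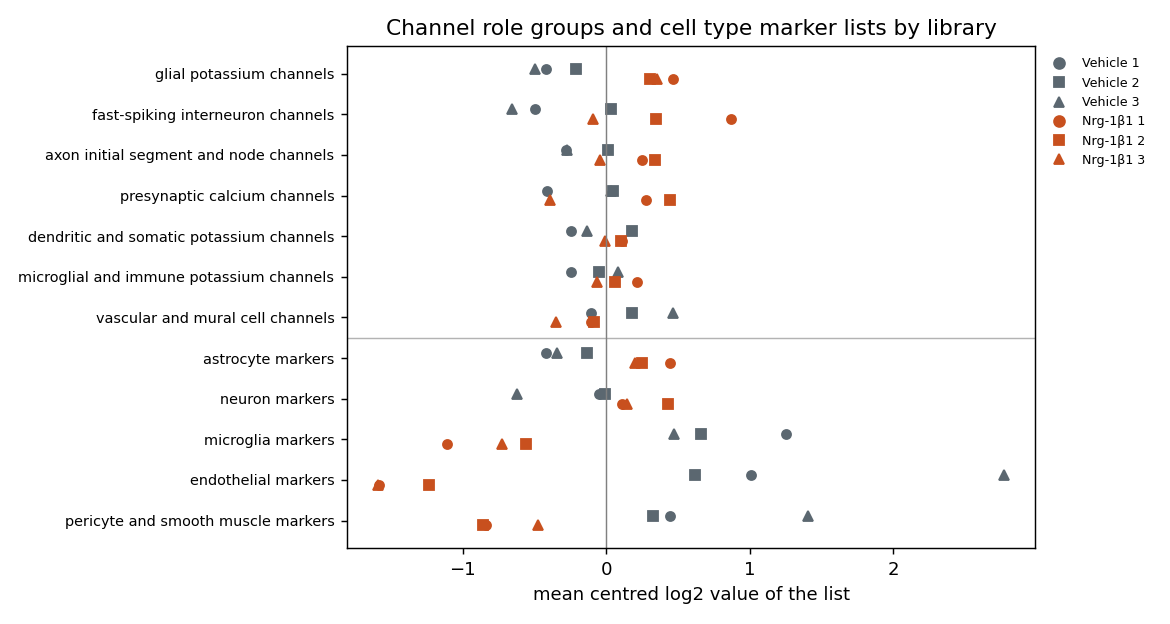
Mean centred log2 value per library of 7 groups of channel genes, above the line, and of 5 cell type marker lists, below it. The glial potassium channels and the astrocyte markers lie below 0 in all vehicle libraries and above 0 in all Nrg-1β1 libraries, and the endothelial and microglial markers lie the other way.

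Genes outside the channel symbols that serve the same complexes were read from 2 lists. Of 32 measured calcium channel β and γ subunits, Kv4 and BK partners, sodium channel binding FGFs, HCN channels and related genes, 0 passed, 17 differences were positive and the median was 0.02. Cacng8, which encodes the AMPA receptor auxiliary subunit γ8 of the hippocampus, came nearest. Its values were 5.93, 6.81 and 6.05 in vehicle and 8.25, 7.90 and 7.07 in Nrg-1β1, a log2 difference of 1.48 ± 0.35 (SE, adjusted p = 0.051, limma), and of 0.93 in the shallow libraries. Abcc8, which encodes the SUR1 subunit that pairs with Kir6.2, had 37, 0 and 37 reads in vehicle against 2, 1 and 5 in Nrg-1β1 and differed by 1.34 (adjusted p = 0.246, limma). Of 12 genes that hold channels at nodes and initial segments 0 passed and 10 differences were positive, with a median of 0.46. Ank3, which encodes the initial segment scaffold ankyrin-G, had values of 9.51, 9.45 and 9.52 in vehicle and 10.47, 10.59 and 10.12 in Nrg-1β1. The groups did not overlap, and the difference was 0.90 ± 0.28 (SE, adjusted p = 0.131, limma), and 0.94 in the shallow libraries. Cntnap1, which encodes the paranodal protein Caspr, had values of 8.35, 9.0 and 8.67 against 10.12, 9.78 and 9.05 and differed by 0.98 ± 0.31 (SE, adjusted p = 0.147, limma), and by 0.65 in the shallow libraries.

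The difference between the deep and the shallow vehicle libraries touched the named genes unequally. Leaving out the deep libraries brought the difference of Cacna2d2 from 1.30 to 0.14, that of Kcnj16 from 0.97 to 0.50 and that of Kcnj10 from 1.74 to 1.01. Those of Scn8a, Kcnd2 and Scn4b were 1.33, 2.00 and 1.23 there against 1.07, 1.89 and 1.28 with all libraries. None passed in the shallow libraries, where a single vehicle library sets the comparison.

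**Figure D5:**
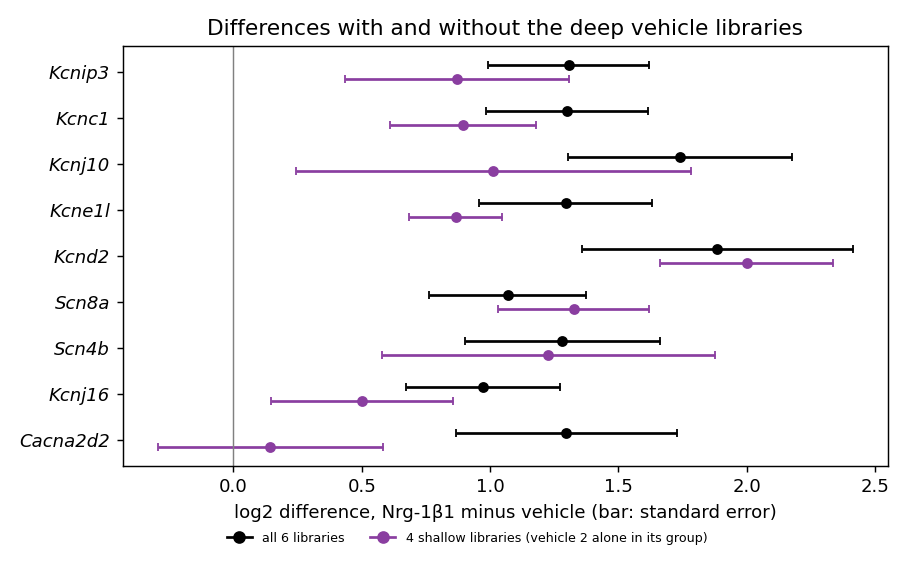
Log2 difference, Nrg-1β1 minus vehicle, with its standard error for 9 channel genes among those with the smallest p, from all 6 libraries (black) and from the 4 shallow libraries alone (purple). All 9 stay above 0, from 0.14 for Cacna2d2 to 2.00 for Kcnd2 in the shallow libraries.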

How the data were processed

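RNA-seq values of 6 libraries, 3 vehicle and 3 Nrg-1β1, were taken from the table that the authors deposited, on a log2 scale. Per the submitters' processing notes, Trimmomatic and Bowtie2 were used. For their versions, the genome build, the counter, the strand setting and the normalization, no label or header used here says what was done. Of 27102 rows 6779 had no value. In every library the minimum is the log2 of 4, and after 4 was subtracted from the unlogged values 100% were whole multiples of 1 step per library within 0.02 of a read. That is why the scale is called log2(normalized count + 4) here, a reading taken from the values. The recovered reads, 567073 to 72953034 per library, have no stated molecular identifiers. Pooled ratios have exact Clopper-Pearson intervals (95%) and, with no read in a group, a floor of 3 reads, which cover counting error only. Antisense and overlapping genes, such as Kcnd3os and Kcnmb4os2, cannot be separated without strand.

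The comparison was limma with an intensity trend (R 4.3.3, limma 3.58.1), group as the only term, on all 20323 genes with Benjamini-Hochberg adjustment at 0.05. The fit was also tested on simulated data, drawn from pooled means at the same dispersion for all genes. Differences of cell mixture between libraries were not simulated. Each library is 1 mouse. The channel genes and lists were chosen with earlier results of these data known. Named were genes past the threshold, the 3 smallest p of each family and a fixed set, while Kcna3, Kcnc2, Kcnj11, Kcnq1 and the genes without reads in a group were added after their values were seen. Some genes that this rule names are not reported here. Alternatives were other scalings, filters, offsets, variance models, limma-voom on recovered reads, left-out libraries, a depth term and a replicate block.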

Additional observations from a re-analysis of the deposited data

How the results depend on the processing

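Over 20 alternatives the number of channel genes called lower stayed at 0, while the single higher call was not stable. The count of higher calls was 10 after centring on library medians, 4 with array weights and 8 with the replicate block (all genes 335 higher and 164 lower, 151 and 183, and 285 and 342), and 1 with an added count of 1 or of 16. It was 0 with quantile normalization, with genes of a mean normalized count of at least 50, with genes of at least 10 reads in 3 libraries, without the intensity trend, with limma-voom with TMM or library totals, with read depth class as a term, in the shallow libraries only and without vehicle libraries 1 and 2 together. Over all genes the limma-voom fits on recovered reads called 6 higher and 0 lower with TMM, and 13 and 1 with library totals. Leaving out 1 library at a time gave 0 to 0 calls. In those 0-call fits of replicated groups the number of channel genes at an unadjusted p under 0.05 was 12 to 28 higher and 0 to 8 lower, apart from the depth term (9 and 5, where all genes gave 2.89% and 5.62%). The 28 came from both limma-voom fits, where 20.3% of all genes were higher at that p with TMM and 19.9% with library totals. The other fits gave 3.25% to 10.9% of all genes higher. Of all genes 1.64% to 7.96% were lower at that p. The 8 lower channel genes came without Nrg-1β1 library 3, where 7.44% of all genes were lower. The 2 filtered fits held fewer channel genes than the 117 of the rest. The filter on mean count gave 12 higher and 1 lower of 33, and that on reads 13 and 2 of 52.

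The median difference of 0.19 was 0.40 after median centring, a step that took all genes from a median of 0.03 to 0.25 and left the channel median 0.16 above it in both. It was 0.47 for genes of a mean normalized count of at least 50 (33 channel genes, all genes 0.04), 0.56 and 0.73 with limma-voom with TMM and library totals (all genes 0.11 and 0.27), and 0.16 to 0.31 with 1 library left out, the highest without Nrg-1β1 library 3. Kcnip3, Kcnj10 and Kcnc1 had positive differences in 20 of 20 alternatives and passed in 3 each, namely median centring, array weights and the replicate block.

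Same-numbered vehicle and Nrg-1β1 libraries did not deviate together, with correlations of -0.27, -0.07 and -0.30 over 6731 genes, so the replicate block with its 8 calls rests on a shared number only. Depth limits the 53 channel genes with fewer than 10 reads over the Nrg-1β1 libraries, whose values move by large steps with a single read.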

Other observations

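Kcnj13 and Kcne2, channel genes of the choroid plexus that were left out of the group above, counted 494, 6 and 768 and 302, 7 and 543 reads in vehicle libraries 1 to 3. In the Nrg-1β1 libraries they had 1, 0 and 0 and 0, 0 and 0 reads. Both were lower at an adjusted p of 0.0267 and 0.0115 (limma). The opposite-strand rows Kcnd3os and Kcnmb4os2, which match the symbol rule without encoding a channel, had 3 or fewer reads in all in the Nrg-1β1 libraries and differed by 0.39 and -0.48 without passing. Reads of Kcnc1 per read of Kcna2 were 0.223, 0.344 and 0.30 in vehicle and 0.896, 0.844 and 0.543 in Nrg-1β1. This ratio within a library does not depend on scaling between libraries, was chosen after the values were seen, and did not overlap between the groups.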
